A study of Mus musculus with 7 samples.

Results

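The miR-17-92 cluster and its paralogues were followed by small RNA sequencing of adult mouse brain tissue. The tissue was the lateral ventricles with their choroid plexus, strain C57BL/6J, with 4 TAp73 knockout libraries (replicates 1 to 4) and 3 wild type libraries (replicates 1 to 3). Members were chosen by name, as every deposited mouse miRNA row of the stems miR-17, miR-18a, miR-19a, miR-20a, miR-19b and miR-92a (the first cluster), miR-106a, miR-18b, miR-20b and miR-363 (the second cluster) or miR-106b, miR-93 and miR-25 (the third cluster). This gave 28 arms of 13 stems among 1914 mouse miRNA rows. TAp73 is the p73 transcription factor isoform with an intact transactivation domain, and by its title the series asks how it acts after transcription during multiciliogenesis in the brain. The labels describe no treatment, do not describe how the knockout allele was made, and do not say whether each library came from 1 animal, so the p-values rest on a spread between libraries that may be technical.

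A miRNA hairpin can yield an arm from its 5p side and one from its 3p side, and the bases 2 to 8 of an arm, its seed, select most of its target transcripts. The miR-17-92 cluster is a single primary transcript holding several hairpins, known as a MYC and E2F target that promotes proliferation and survival of progenitor cells, including those of the developing brain. Its paralogues arose by duplication: one lies on the X chromosome and is usually weakly expressed, and the other lies in Mcm7, which encodes a subunit of the replicative helicase. E2F factors drive Mcm7, and the miR-17 seed is known to restrain the cell cycle inhibitor Cdkn1a and the proapoptotic gene Bcl2l11.

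The hairpins of the first cluster lie at chr14:115043671-115044506 on the plus strand (build GRCm38.p6), 6 hairpins within 836 bases that overlap an exon of the long noncoding gene Mir17hg (chr14:115042879-115046727, GENCODE release M21). The second cluster lies at chrX:52741693-52742567 on the minus strand, with 6 hairpins in 875 bases beside the noncoding gene Kis2, whose annotated end overlaps Mir106a. The third cluster lies at chr5:138165321-138165818 on the minus strand, with 3 hairpins in 498 bases inside Mcm7 (chr5:138164583-138172422) and on its strand. Mir106b is intronic in each annotated Mcm7 transcript, and Mir93 and Mir25 overlap exons of retained-intron transcripts only. The files give no coordinates, and the submitters' processing notes name mm10, the same assembly.

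Mature sequences from RefSeq (GRCm38.p6) were found for 26 of the 28 arms. They are shown here for the arms that carry each seed because the 4 seeds divide the members in a way that crosses the clusters. Capitals mark the seed. The miR-17 seed is held by 6 arms from all 3 clusters.
miR-17-5p: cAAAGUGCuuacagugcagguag
miR-106a-5p: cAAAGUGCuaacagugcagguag
miR-20a-5p: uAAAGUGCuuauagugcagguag
miR-20b-5p: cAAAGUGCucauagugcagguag
miR-93-5p: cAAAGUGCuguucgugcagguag
miR-106b-5p: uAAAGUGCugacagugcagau
The miR-18 seed is held by an arm of the first cluster and one of the second.
miR-18a-5p: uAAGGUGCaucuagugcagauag
miR-18b-5p: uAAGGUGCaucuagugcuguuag
The miR-19 seed is held by both miR-19 arms.
miR-19a-3p: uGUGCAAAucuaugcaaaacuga
miR-19b-3p: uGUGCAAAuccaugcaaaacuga
The seed of miR-25 and miR-92 is held by an arm of each cluster, and also by miR-92b-3p, which no member cluster encodes.
miR-92a-3p: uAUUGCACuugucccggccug
miR-25-3p: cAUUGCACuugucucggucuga
miR-363-3p: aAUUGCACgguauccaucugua
miR-92b-3p: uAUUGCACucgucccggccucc

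Several of these arms are close to identical, and how the authors assigned reads between them is not given in the sources used here. Counting positions from 1 at the 5′ end, with the base of the arm named first given first, miR-17-5p and miR-106a-5p differed at 1 base (U10A), as did miR-19a-3p and miR-19b-3p (U11C). The pair miR-20a-5p and miR-20b-5p differed at 2 bases (U1C and U10C), and miR-18a-5p and miR-18b-5p at 2 (A18U and A20U). Over the 21 bases of miR-92a-3p, miR-92b-3p differed at 2 (U10C and G21C) and miR-25-3p at 3 (U1C, C14U and C18U). Separate values of such arms are therefore less certain than totals over all arms that carry a seed. The members' total for the seed of miR-25 and miR-92 leaves out miR-92b-3p, which had 351914 reads against 62278 of miR-92a-3p. That total, the level of miR-92a-3p and the total of the first cluster thus share this uncertainty, whose size was not tested.

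The mature arms miR-19b-3p and miR-92a-3p are each encoded both in the first and in the second cluster, so their reads cannot be placed by sequence. The hairpins of miR-92a show why: in these, capitals mark both mature arms, and of these arms the 3p is the same in both copies while the 5p differs.
Mir92-1: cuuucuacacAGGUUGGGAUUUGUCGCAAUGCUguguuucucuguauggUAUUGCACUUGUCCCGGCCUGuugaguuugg
Mir92-2: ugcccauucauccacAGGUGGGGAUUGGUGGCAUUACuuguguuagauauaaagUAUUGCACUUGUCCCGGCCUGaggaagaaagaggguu
The first hairpin lies on chromosome 14 and the second on the X chromosome.

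The libraries held from 955057 to 9233235 mouse miRNA reads, and knockout replicate 3 was the shallowest. Levels are counts per 1000000 mouse miRNA reads (CPM). A count of 0 allows up to 3 reads, which is 0.325 CPM in the deepest library and 3.14 CPM in the shallowest, and such limits cover counting error only. Markers of the labelled tissue were present: the choroid plexus miRNAs miR-204 and miR-211 together stood at 2015 to 11789 CPM, and the miR-34b, miR-34c and miR-449 miRNAs of multiciliated cells at 386 to 3675 CPM. Lists of neuronal (26756 to 48350 CPM), neural progenitor and glial (28588 to 41689 CPM) and vessel wall miRNAs (16376 to 25414 CPM) stood higher. Those of red blood cells, leukocytes and microglia, and oligodendrocytes had lower means than choroid plexus. The markers thus show presence and not purity. Only small RNA was measured, so Trp73 itself, the gene targeted, could not be read in any library. In bulk tissue, fewer cells of a type and less RNA per cell cannot be told apart.

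None of the tested members of the 3 clusters was called between knockout and wild type ventricles. The arms that carried most of the reads, miR-92a-3p, miR-25-3p and miR-93-5p, had fold changes between 0.99 and 1.22, and the groups overlapped for each. Of the 28 members, 13 passed the filter on low counts: 7 of the first cluster, 1 of the second and 5 of the third. In edgeR's quasi-likelihood test with Benjamini-Hochberg adjustment over 534 mouse miRNAs, 0 of these 13 had an adjusted p under 0.05, where 1.12% of all tested miRNAs did. The smallest adjusted p of a member was 0.42 in edgeR, and over the alternative fits it ranged from 0.29 to 0.67. limma-voom also called 0 members. DESeq2 called 0 as well, but gave no adjusted p for miR-17-3p, miR-18a-5p, miR-19a-3p, miR-363-3p and miR-93-3p, which it could therefore not call. At an unadjusted p under 0.05 there were 0 of 13 members, where 12.9% of all tested miRNAs passed, and 0 of 13 had groups without overlap, where 11.8% of all did.

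The median log2 fold change of the 13 arms was -0.02, the same as that of all 534 tested miRNAs at -0.02. Log2 fold changes were above 0 for 6 arms and below 0 for 7, where 47.2% of all tested miRNAs were above 0, and with library totals in place of TMM scaling 4 were above 0. They ran from -0.65 for miR-18a-5p to 0.32 for miR-17-3p, both of them scarce arms.

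**Figure D1:**
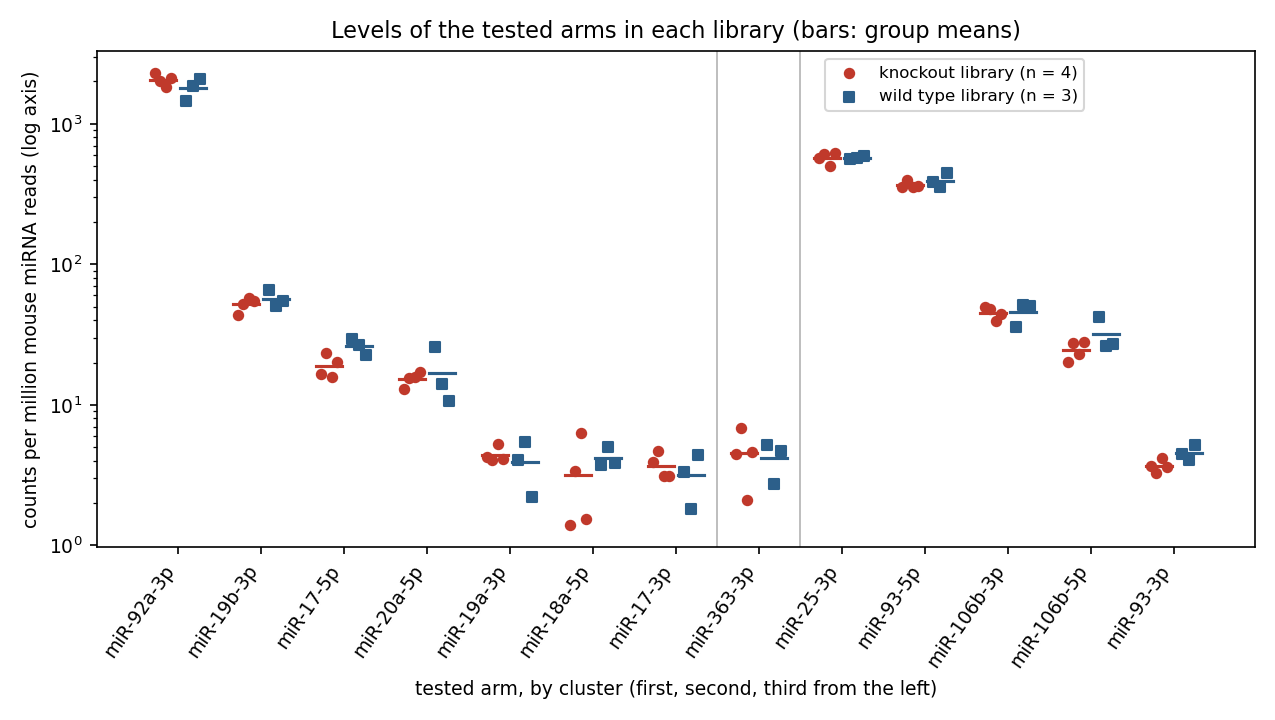
Levels of the 13 tested arms in CPM (log axis), with a point per knockout library (n = 4, circles) and wild type library (n = 3, squares) and a bar at each group mean. Arms are ordered by level within each cluster, from the first to the third; miR-92a-3p, at 1449 to 2286 CPM, stands far above the other arms of its cluster, and the groups overlap for each arm.

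In the first cluster, miR-92a-3p was the most abundant member of all and ranked 51 among mouse miRNAs by mean level. miR-92a is best known as a restrainer of blood vessel growth and as an abundant miRNA of red blood cells and neural progenitors. It stood at 2286, 2031, 1832 and 2106 CPM in knockout replicates 1 to 4 and at 1449, 1854 and 2085 CPM in wild type replicates 1 to 3. The highest library was a knockout and the lowest a wild type, and wild type replicate 3 lay above knockout replicates 2 and 3. Group means were 2064 ± 188 CPM over the 4 knockouts (mean ± SD) against 1796 ± 322 CPM over the 3 wild types. The log2 fold change was 0.28 ± 0.14 (SE), and its 95% interval ran from -0.02 to 0.59 (edgeR adjusted p = 0.42), which holds both no change and levels up to 1.51-fold higher. With TMM scaling this arm showed the smallest unadjusted edgeR p of the tested members, at 0.068. With library totals alone its log2 fold change was 0.20 (edgeR unadjusted p = 0.20), and the smallest p was that of miR-17-5p. Without wild type replicate 1 the log2 fold change was 0.14, and without wild type replicate 3 it was 0.37.

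The other arms of the first cluster were far scarcer, although the hairpins share a primary transcript. miR-19b-3p was next at 52.2 ± 6.08 CPM over the 4 knockouts (mean ± SD) against 57.0 ± 7.72 CPM over the 3 wild types. Its log2 fold change was -0.07 ± 0.18 (edgeR adjusted p = 0.87), and 0.05 without wild type replicate 1. Reads of miR-92a-3p outnumbered those of miR-19b-3p by 39.8-fold over all libraries, and by 22.1-fold to 52.4-fold in single ones. miR-92a-3p took 95.2% of the reads assigned to the first cluster, from 91.4% in wild type replicate 1 to 96.3% in knockout replicate 1. The arms are 21 to 24 bases long, so length hardly alters this order, but differences in ligation and amplification between sequences were not corrected.

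miR-17-5p, the arm that gives the cluster its name, was at 18.9 ± 3.52 CPM over the 4 knockouts (mean ± SD) against 26.1 ± 3.43 CPM over the 3 wild types. Its knockout libraries ran from 15.7 to 23.4 CPM and its wild types from 22.5 to 29.3 CPM, so that they overlapped only through knockout replicate 2 and wild type replicate 3. The log2 fold change was -0.36 ± 0.22, over the interval -0.83 to 0.12 (edgeR adjusted p = 0.54). With library totals alone it was -0.43 (edgeR unadjusted p = 0.068). miR-20a-5p, which differs from miR-17-5p at positions 1 and 12 (C1U and C12U), was at 15.4 ± 1.82 CPM over the knockouts against 16.9 ± 8.02 CPM over the wild types. Wild type replicate 1 alone reached 25.9 CPM, and without it the log2 fold change moved from -0.07 to 0.39.

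The remaining tested arms of the first cluster stood at 1.41 to 6.28 CPM in each library. Log2 fold changes were 0.26 for miR-19a-3p, -0.65 for miR-18a-5p and 0.32 for miR-17-3p, the passenger arm of miR-17-5p. Their intervals were wide, from -1.71 to 0.42 for miR-18a-5p, which had 6 to 26 reads in a library. Changes of a size within those intervals could not be told from no change here. miR-19a-3p was -0.11 without wild type replicate 3, so its direction rested on that library. miR-17-3p was 0.10 without wild type replicate 2 but 0.61 without wild type replicate 3. miR-18a-5p was -0.34 without knockout replicate 1 but -0.94 without knockout replicate 2.

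In the third cluster the arms miR-25-3p and miR-93-5p differed little in mean level between genotypes. miR-25, which like miR-92a carries a seed known to act on Bcl2l11, was at 567, 612, 500.5 and 618 CPM in knockout replicates 1 to 4 and at 566, 571 and 589 CPM in wild type replicates 1 to 3. The 3 wild types lay inside the range of the knockouts. The means were 574 ± 54.2 CPM over the 4 knockouts (mean ± SD) against 575 ± 12.2 CPM over the 3 wild types. The log2 fold change of 0.08 ± 0.13 had the narrowest interval of all members, -0.20 to 0.36 (edgeR adjusted p = 0.80), and with library totals alone it was -0.0010. Fold changes beyond 1.28 upward lay outside this interval.

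miR-93-5p, the main carrier of the miR-17 seed in this tissue, was at 355, 400.3, 357 and 362 CPM in knockout replicates 1 to 4 and at 383, 353 and 447 CPM in wild type replicates 1 to 3. The lowest and the highest of the 7 libraries were both wild types. Its log2 fold change was -0.02 ± 0.13, with an interval of -0.31 to 0.27 (edgeR adjusted p = 0.96), and 0.05 without wild type replicate 3. Beside miR-17-5p its reads were 17.9-fold more numerous over all libraries.

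miR-106b gave more reads from its 3p arm than from its 5p arm, the arm that carries the miR-17 seed. miR-106b-3p was at 45.4 ± 4.33 CPM over the 4 knockouts (mean ± SD) against 45.9 ± 8.64 CPM over the 3 wild types, with a log2 fold change of 0.08, or -0.0024 with library totals alone and -0.07 without wild type replicate 1. miR-106b-5p was at 24.7 ± 3.67 and 31.8 ± 8.79 CPM, with a log2 fold change of -0.28, which was -0.03 without wild type replicate 1. That library held 41.9 CPM of miR-106b-5p, against 20.3 to 27.8 CPM in the other 6. miR-93-3p, a passenger arm, was at 3.25 to 5.21 CPM with a log2 fold change of -0.29 (edgeR adjusted p = 0.73).

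**Figure D2:**
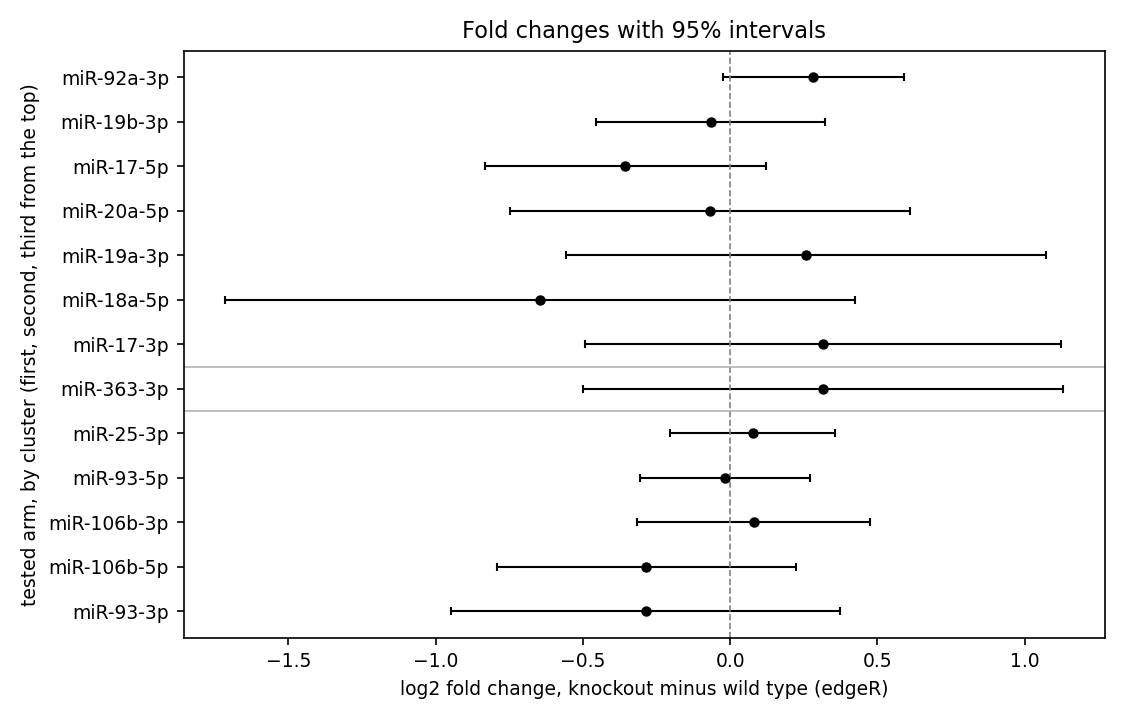
Log2 fold changes (x axis, knockout minus wild type) of the 13 tested arms with 95% intervals from edgeR, in the order of the level plot from top to bottom. Each interval includes 0; the narrowest belongs to miR-25-3p (-0.20 to 0.36) and the widest to miR-18a-5p (-1.71 to 0.42).

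The arms exclusive to the second cluster were close to the detection limit in both genotypes. The 8 arms of its own stems had 214 reads in all 7 libraries, 0.22% of the reads of the 3 clusters. The exact 95% interval of 0.19% to 0.25% covers counting error only, and the share was 0.073% to 0.29% in single libraries. The arms miR-92a-2-5p and miR-19b-2-5p, also exclusive to it, are grouped by stem with the first cluster and had 0 reads. miR-363-3p was the only tested arm exclusive to the second cluster, with 2 to 53 reads in a library. It was at 4.51 ± 1.96 CPM over the 4 knockouts (mean ± SD) against 4.19 ± 1.30 CPM over the 3 wild types. The log2 fold change was 0.31 ± 0.37 (edgeR adjusted p = 0.73), or 0.03 without knockout replicate 2.

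Compared with their first-cluster counterparts, miR-106a-5p took 21 of 667 reads assigned to it or miR-17-5p, or 3.15% (exact 95% interval 1.96% to 4.77%). miR-20b-5p took 28 of 489 reads shared with miR-20a-5p, or 5.73% (3.84% to 8.17%), and miR-18b-5p took 3 of 89 shared with miR-18a-5p, or 3.37% (0.70% to 9.54%). These intervals pool the reads of all libraries and cover counting error only. In single libraries the shares ran from 0% to 5.56% for miR-106a-5p, 0% to 11.2% for miR-20b-5p and 0% to 7.14% for miR-18b-5p. The 5p arms tell the copies of miR-92a and miR-19b apart. miR-92a-1-5p, from the first cluster, had 20, 16, 0 and 10 reads in knockout replicates 1 to 4 and 3, 0 and 2 reads in wild type replicates 1 to 3. miR-92a-2-5p, from the second, had 0 reads in each library. This allows up to 3 of the 51 reads of this pair, pooled over libraries, a share of 5.88% (exact 95% interval 0% to 6.98%). miR-19b-1-5p had 1 read in each of knockout replicates 2 and 4 and wild type replicate 1 and 0 in the others, and miR-19b-2-5p had 0 in all 7, too few for a share. These 5p arms are passengers, and whether both copies release their passenger equally was not tested.

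Of the 15 members that did not pass the filter, 3 had 0 reads (miR-106a-3p, miR-92a-2-5p and miR-19b-2-5p) and 12 had 1 to 62 reads in total. The most numerous were miR-18a-3p with 62, miR-92a-1-5p with 51 and miR-25-5p with 44 reads. For miR-92a-1-5p, 46 of the 51 reads (90.2%) came from knockouts, which held 71.8% of all mouse miRNA reads. Its levels were 2.166, 2.08, 0 and 2.58 CPM in knockout replicates 1 to 4 and 1.11, 0 and 0.548 CPM in wild type replicates 1 to 3. Knockout replicate 3 at 0 reads kept the groups overlapping, though its detection limit of 3.14 CPM lies above each of the other values. When no filter was applied, edgeR gave this arm an unadjusted p of 0.0090 and an adjusted p of 0.27.

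Summed by cluster, the first held 2166 ± 180 CPM over the 4 knockouts (mean ± SD) against 1911 ± 305 CPM over the 3 wild types, a log2 difference of 0.19 ± 0.15 (SE). It was 0.06 without wild type replicate 1, 0.29 without wild type replicate 3 and 0.27 with TMM scaling. When miR-92a-3p and miR-19b-3p, which the second cluster also encodes, were left out, the log2 difference of the remaining arms was -0.20 ± 0.17, of the other sign. The direction of the first cluster's total is thus that of miR-92a-3p, its largest part. The arms exclusive to the second cluster held 6.20 ± 3.13 CPM over the knockouts against 5.26 ± 1.81 CPM over the wild types, a log2 difference of 0.11 ± 0.58 that fell below 0 without knockout replicate 1 (-0.060), knockout replicate 2 (-0.15) or wild type replicate 2 (-0.22). The third held 1019 ± 71.7 and 1053 ± 59.6 CPM, a log2 difference of -0.05 ± 0.07, or 0.03 with TMM scaling. For each cluster the 2 groups overlapped, and no test was made of these sums because the members were chosen together.

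All 3 clusters together made up 0.26% to 0.34% of mouse miRNA reads. With miR-92a-3p and miR-19b-3p counted in it, the first cluster took 67.2% of these reads, and the third took 32.6%. Those 2 arms alone were 65.6%, and the arms exclusive to the first cluster were 1.61% (1567 reads). The share of the third cluster was 29.5% to 33.70% in knockouts and 33.78% to 39.4% in wild types. These groups lay next to each other without overlap and were not tested. The share of the first cluster, nearly its complement, did overlap, at 66.01% to 70.3% in knockouts against 60.4% to 66.03% in wild types. The maximum of the third cluster was in wild type replicate 1, the library lowest in miR-92a-3p. Since miR-92a-3p is most of the reads that these shares divide by, the 2 values are not independent.

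Summed by seed, the output differed much more between seeds than between genotypes. The seed of miR-25 and miR-92 took 82.4% of the members' reads, at 2643 ± 222.4 CPM over the 4 knockouts (mean ± SD) against 2376 ± 333 CPM over the 3 wild types, a log2 difference of 0.16 ± 0.13. That difference was 0.05 without wild type replicate 1 but 0.25 without wild type replicate 3. The miR-17 seed took 13.9%, at 429 ± 28.1 and 470.0 ± 45.5 CPM, a log2 difference of -0.13 ± 0.09 (-0.05 with TMM scaling), and 85.5% of its reads were miR-93-5p. Leaving out wild type replicate 2 moved the miR-17 seed difference to -0.21, and leaving out wild type replicate 3 to -0.07. The miR-19 seed took 1.73%, at 56.6 ± 6.38 and 60.9 ± 7.60 CPM, with 92.8% from miR-19b-3p. The miR-18 seed took 0.091%, at 3.25 ± 2.255 and 4.17 ± 0.697 CPM, from 89 reads in all. Groups overlapped for each of the 4 seeds. Most reads with the miR-17 seed thus came from the third cluster, through miR-93, and most members' reads with the seed of miR-25 and miR-92 were miR-92a-3p (77.7%), which 2 of the clusters encode.

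**Figure D3:**
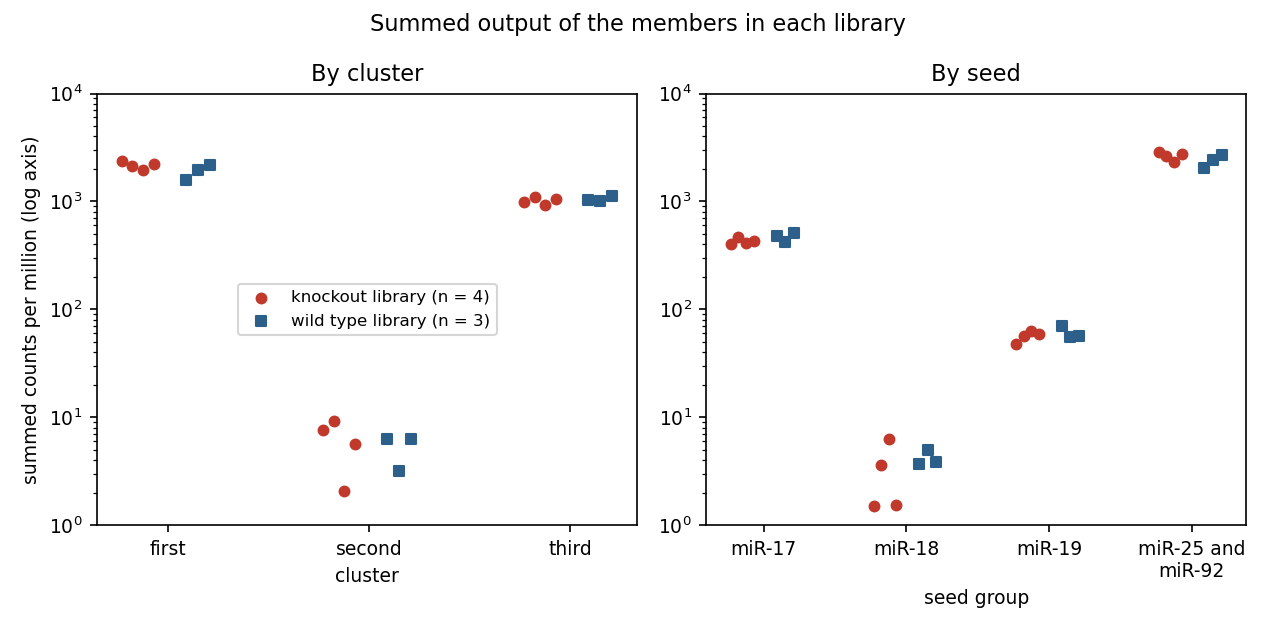
Summed CPM (log axis) of the members by cluster (left) and by seed (right), with a point per knockout library (n = 4, circles) and wild type library (n = 3, squares). The first cluster (1585 to 2373 CPM) and the third (929 to 1120.3 CPM) lie far above the second (2.09 to 9.35 CPM), where miR-92a-3p and miR-19b-3p, encoded in both, are drawn with the first (43.5 to 70.4 CPM without them), and knockout and wild type points overlap in each column.

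Members were not the largest source of the seed that they share with miR-92b. miR-92b-3p, encoded on its own and known from neural stem and progenitor cells, stood at 11481 ± 2362 CPM over the 4 knockouts (mean ± SD) against 8889 ± 2015 CPM over the 3 wild types. Its reads outnumbered those of miR-92a-3p by 5.65-fold over all libraries, so that the members supplied 18.5% of the reads found with this seed (16.2% to 22.4% in single libraries). The log2 fold change of miR-92b-3p was 0.45 ± 0.18, with an interval of 0.06 to 0.85, and it was not called (edgeR adjusted p = 0.38). miR-32-5p, an intronic relative with the same seed, was at 13.6 ± 2.94 and 14.9 ± 2.87 CPM with a log2 fold change of -0.04, and miR-367-3p had 0 reads. A RefSeq sequence was found for 1614 of the 1914 mouse rows, and the 300 others held 6.68% of the reads. Over the 6 arms found with this seed the sum was 14138 ± 2532 CPM over the knockouts against 11280 ± 2338 CPM over the wild types, with groups that overlapped. For the other seeds the members supplied all reads among the rows with a sequence.

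Arm choice within a hairpin could be compared for miR-17, miR-106b and miR-93, whose arms both passed the filter. A ratio of arms does not depend on scaling between libraries. The log2 ratio of 5p to 3p reads of miR-17 was 2.29 ± 0.26 over the 4 knockouts (mean ± SD) against 3.04 ± 0.70 over the 3 wild types, a difference of -0.74 (exact permutation p = 0.11, adjusted p = 0.34 over 3 hairpins, two-sided). This difference was -0.40 without wild type replicate 2 but -1.10 without wild type replicate 3, and the 3p arm of miR-17 had 3 to 36 reads in a library. For miR-93 the log2 ratio was 6.58 ± 0.27 and 6.37 ± 0.01 (exact permutation p = 0.31, adjusted p = 0.47), and the 5p arm outnumbered the 3p arm by 98.7-fold over all libraries. For 4 against 3 libraries the smallest p that this test allows is 0.029.

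miR-106b was the only one of these hairpins with more 3p than 5p reads, by 1.79-fold over all libraries. The ratio of 3p to 5p reads was 2.45, 1.74, 1.73 and 1.59 in knockout replicates 1 to 4, and 0.858, 1.95 and 1.87 in wild type replicates 1 to 3. Wild type replicate 1 thus stood alone with more 5p than 3p reads, and knockout replicate 1 had the largest excess of 3p reads. On the log2 scale of 5p to 3p the groups were at -0.88 ± 0.28 over the 4 knockouts (mean ± SD) against -0.55 ± 0.66 over the 3 wild types (exact permutation p = 0.51, adjusted p = 0.51), and the difference of -0.34 was 0.05 without wild type replicate 1.

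**Figure D4:**
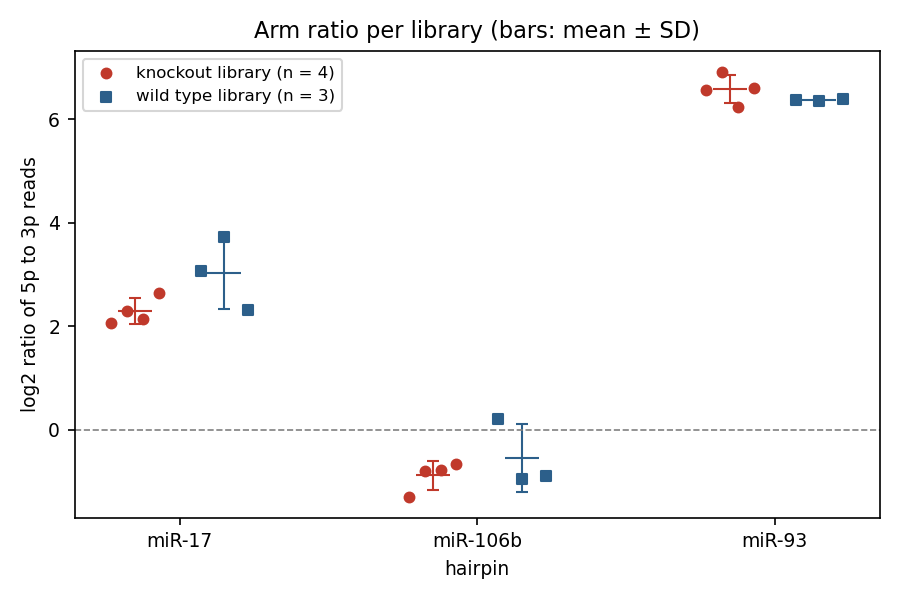
Log2 ratio of 5p to 3p reads (y axis) for the 3 hairpins with both arms tested, with a point per knockout library (n = 4, circles) and wild type library (n = 3, squares) and bars for the mean ± SD. miR-93 is almost all 5p (6.25 to 6.92), miR-17 mostly 5p (2.07 to 3.72), and miR-106b lies below 0 in each library but wild type replicate 1 (0.22).

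Other miRNAs linked to proliferation, whether as promoters or brakes, were scarce or were not called either. The stem cell clusters miR-290 to miR-295 and miR-302, whose seed is that of miR-17 shifted by 1 base in several members, had 10 reads over 24 arms and 7 libraries, and none of these arms could be tested. Of the miR-15b, miR-16, miR-130b, miR-301b, miR-221 and miR-222 arms, 11 of 13 were tested and 0 were called, with 6 log2 fold changes above 0 and 5 below 0 and a median of 0.06. The largest of these differences was that of miR-221-5p, at 0.58 ± 0.28 (edgeR adjusted p = 0.42). Their most abundant member was miR-16-5p, a brake on the cell cycle, with 207825 of the 274707 reads of these arms. It was at 6746 ± 727 CPM over the 4 knockouts (mean ± SD) against 6513 ± 751 CPM over the 3 wild types.

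Marker levels of other cell types in the tissue were also compared. The choroid plexus rows (3 of 4 tested, 0 called, each with a log2 fold change below 0) summed to 2016 CPM in knockout replicate 3 and 2015 CPM in wild type replicate 2, against 4999.7 to 11789 CPM in the other 5 libraries. The 6 red blood cell rows (miR-451a, miR-144 and miR-486, 4 of them tested, each above 0) summed to 3764 to 5217 CPM among knockouts against 3859 to 4196 among wild types, with 0 called. The leukocyte and microglia rows (8 of 12 tested, 0 called, each above 0) summed to 1521 to 1935 CPM among knockouts against 1474 to 1569 among wild types. The neural progenitor and glial rows, miR-9 and miR-92b (4 of 4 tested, 0 called, each above 0), summed to 35763 to 41689 CPM among knockouts against 28588 to 34839 among wild types, without overlap. Among single tested miRNAs, 11.8% had groups without overlap. The sum of miR-9 and miR-92b was lowest in wild type replicate 1, as was miR-92a-3p. That sum includes miR-92b-3p, which differs from miR-92a-3p at 2 bases, so these levels may not be independent. Neuronal (21 of 22 tested, 14 above 0 and 7 below), oligodendrocyte (4 of 5, 2 above and 2 below) and vessel wall rows (5 of 6, 3 above and 2 below) had 0 called and overlapping sums. All 6 tested multiciliated rows were called (2 higher and 4 lower in knockouts), at 386 to 760 CPM among knockouts against 1291 to 3675 among wild types. These were all 6 calls of the main test, or 1.12% of the 534 tested miRNAs, of which 47.2% were above 0. An unadjusted edgeR p under 0.05 was also found for 6 neuronal, 2 neural progenitor and glial and 1 red blood cell row, where 12.9% of all tested miRNAs passed. The part of these cells in the member levels was not tested.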

How the data were processed

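For each library the authors deposited 1 table of unnormalized read counts over 66568 named small RNA rows of many species; its closing lines hold 0 reads. Library preparation followed Illumina's TruSeq small RNA protocol, per the labels' protocols. Among tools, bcl2fastq 2.17.1.14 and DESeq2 appear in the submitters' processing notes, with the build mm10; which aligner and counter were used is not given in the sources used here. No molecular identifiers are described.

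Tests on mouse rows used edgeR 4.0.16 under R 4.3.3 (TMM, filterByExpr with minimum count 10 and total 15, robust quasi-likelihood, Benjamini-Hochberg, called under 0.05), after a check on simulated data. TMM factors ran from 0.968 to 0.983 among knockouts and from 1.01 to 1.07 among wild types. With library totals alone, log2 fold changes shifted by a median of -0.08 from the main test. CPM values are unscaled by TMM. Log2 differences of sums are between means of log2 CPM. Arm ratios used a pseudocount of 0.5 reads and an exact permutation test over 35 splits, two-sided. Named were each tested arm, with values in each library for arms averaging at least 100 CPM, arms with an unadjusted p under 0.05 and arms of 1 copy, and tested members of fixed lists. Alternatives were DESeq2 1.42.0, limma-voom (limma 3.58.1), other scalings and filters, rows of all species summed, and leaving out libraries. Members and lists were chosen with earlier results of these data known. No library repeated another, with chi-square per degree of freedom of at least 46.6.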

Additional observations from a re-analysis of the deposited data

Results flagged for a closer look

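Each of 24 values (single arms, totals and arm ratios) was examined among the 4 knockouts for a library standing apart, and this was so for 2 of them, where chance gives about 1 in 20. For miR-93-5p it was knockout replicate 2, at 400.3 CPM while the remaining knockouts lay at 355 to 362 CPM; this distance made up 0.837 of the whole spread. For miR-19a-3p it was knockout replicate 3, at 5.24 CPM (5 reads) while the remaining knockouts lay at 4.03 to 4.22 CPM, or 0.838 of the whole spread. In that library 1 read equals 1.05 CPM, about the size of this distance. Wild types, with 3 libraries, were too few to examine.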

How the results depend on the processing

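No member was called in any of the 16 alternative fits. Not all 13 could be called in each, since DESeq2 gave some of them no adjusted p. A filter of at least 10 CPM in at least 3 libraries left 8 members tested. The number of members at an unadjusted edgeR p under 0.05 was 0 of 13 in the main test. With no filter it was 2 of 25 members among 1284 miRNAs tested (miR-92a-1-5p and miR-92a-3p). It was 0 to 1 when single libraries were left out (1 without knockout replicate 3 or without wild type replicate 3). Without both knockout replicate 3 and wild type replicate 2 it was 1 (the pair lowest in choroid plexus miRNAs, an alternative added after the data were seen). The 1 was miR-92a-3p each time. The share of all tested miRNAs at this threshold, 12.9%, was counted for the main test only, so these counts have no background beside them. Over all mouse miRNAs the calls were 6 in the main test, 13 with DESeq2 (which gave no adjusted p for 63), 19 with no filter, 3 to 14 when single libraries were left out (3 without wild type replicate 1, 14 without wild type replicate 2) and 19 without that pair. Log2 fold changes of uncalled arms changed sign for miR-20a-5p with limma-voom (0.042), for miR-93-5p with no filter (0.014), and for miR-25-3p (-0.0010) and miR-106b-3p (-0.0024) with library totals alone. When single libraries were left out they ranged from -0.36 to 0.39 for miR-20a-5p, -0.11 to 0.58 for miR-19a-3p, -0.13 to 0.045 for miR-19b-3p, -0.074 to 0.18 for miR-106b-3p and -0.072 to 0.051 for miR-93-5p, and from -0.54 to 0.045 for the miR-106b arm ratio. Without the arms that 2 loci encode, or with them in the second cluster, the log2 difference of the first cluster was -0.20, and without them that of all 3 clusters was -0.056. Beyond these the cause of each shift was not tested. No paired analysis was possible because the labels give no replicate number shared between genotypes. The replicate numbers used here only name libraries and pair none of them. The depth of knockout replicate 3 limits arms under 3.14 CPM there.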

Other observations

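The tables also hold 262 rows of other species that carry the stem number of a member, with any letter or none. These had 3 reads over all 7 libraries, 1 of them in a miR-92b row, a stem outside the members. Summing rows across species thus left the members' totals as they were. miR-6383, which shares the miR-17 seed without belonging to a member cluster, had 0 reads.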
